A study of Mus musculus with 4 samples.

Results

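The comparison described here set all cells of the control GMP sort against all cells of the control Lin-/CD11b+ sort of mouse bone marrow, across all genes. Members were chosen by the library that the deposited cell table gives for each cell, which left 1258 cells of the GMP sort and 1924 cells of the Lin-/CD11b+ sort, 3182 of 8969 cells in all. The GMP sort was gated as Lin- cKit+ Sca1- CD34+ CD16/32+, and the other sort brought together Lin- progenitors and CD11b+ myeloid cells. The control mice, called WT, were Mx1-Cre negative Tet2 fl/fl littermates, so they carried floxed but intact Tet2 alleles. Mice with the same alleles and Mx1-Cre, a Cre driven by an interferon-responsive promoter, gave Tet2 KO libraries of the same 2 sorts. All groups, controls included, had received repeated doses of pI:pC, an RNA mimic that induces interferon. The study's methods give a young adult age range and no age per mouse. Both WT libraries came from 1 mouse in the cell table, so a difference between the sorts is also a difference between 2 preparations, and no test was made. Intervals are at 95% and cover counting error only.

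Granulocyte-monocyte progenitors (GMPs) are committed myeloid precursors of the bone marrow that give rise to neutrophils and monocytes. Neutrophil granules are made in order. Primary (azurophil) granule proteins such as myeloperoxidase and neutrophil elastase are transcribed in early precursors, secondary and tertiary granule proteins such as lactoferrin later, and genes of the mature cell last. CD11b, the product of Itgam, appears on the surface as myeloid cells mature, and a Lin- gate removes most cells that carry antigens of mature lineages. The contrast of the 2 sorts therefore bears on which RNA is found in gated GMPs and which is found in the wider marrow fraction that includes stem cells, mature myeloid cells and whatever else passed the gate.

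The 2 libraries had nearly the same total, 22890469 UMIs (unique molecular identifiers, each marking 1 captured RNA molecule) in the GMP sort and 22681380 in the Lin-/CD11b+ sort. Depth per cell differed, with a median of 18713 UMIs and 3399.5 genes per cell in the GMP sort against 11091.5 UMIs and 2450 genes. The median share of mitochondrial UMIs was alike, at 2.45% and 2.31%. More cells of the GMP sort, 116 (9.22%) against 44 (2.29%), were at or above 5%, the limit stated for the study's cells. Only 6 cell barcodes were shared. The study's listing of cell numbers interchanges the WT Lin-/CD11b+ library with the Tet2 KO GMP library relative to the deposited table, and the deposited assignment was used. Under it, the library labelled Tet2 KO GMP held 0 plasma cell-like and 0 neutrophil-like cells, whereas the library labelled WT Lin-/CD11b+ held 158 and 153. Tet2 RNA, which a floxed allele without Cre leaves in place, was at 13.02 CPM (UMIs of the gene per 1000000 UMIs of the library) in the GMP sort and 13.4 CPM in the other, a log2 ratio of -0.04 with an interval from -0.28 to 0.19. In the Tet2 KO libraries it was at 17.0 and 20.7 CPM, so Tet2 UMIs, which are read from transcript ends, do not check the genotype labels.

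Transcripts of the antigens used for sorting followed the gates in direction, at modest ratios. Ratios are log2 of CPM + 1 in the GMP sort over the Lin-/CD11b+ sort unless stated. Fcgr3, which encodes a CD16/32 antigen, was at 153 and 94.5 CPM, a ratio of 0.69. Fcgr2b, the other gene of that antibody pair, was at 50.9 and 42.9 CPM, a ratio of 0.24. Kit, the receptor for stem cell factor, was at 30.4 and 21.5 CPM, a ratio of 0.48. Cd34 RNA was at 104 and 77.5 CPM, a ratio of 0.42. All 4 genes of the positive gate were thus higher in the GMP sort, by less than 2-fold. The antigens absent from the GMP gate showed larger differences. Itgam was at 5.81 CPM in the GMP sort and 22.3 CPM in the other, a ratio of -1.77. Ly6a, which encodes Sca1, was at 3.06 and 67.4 CPM, a ratio of -4.07. Of the Ly6a UMIs in the Lin-/CD11b+ library, 80.2% lay in cells that resembled plasma cells and 4.19% in cells that resembled stem and early progenitor cells.

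Because cells of the GMP sort were deeper, shares of cells with a UMI were compared after each cell was thinned to 5000 UMIs, which every cell reached. Kit was detected in 15.3% of thinned GMP-sort cells and 8.94% of the others, and Cd34 in 34.7% and 23.5%. Cd34 together with Fcgr3 or Fcgr2b was found in 18.1% (interval 16.03 to 20.4) and 5.82% (4.82 to 6.96) of cells. Without thinning these shares were 58.7% and 17.6%. Kit, Cd34 and an Fc receptor gene together were seen in 51 cells (4.05%) of the GMP sort and 14 cells (0.728%) of the other. None of the 4 transcripts was seen in 21.5% and 38.8% of thinned cells, so RNA of the antigens does not mark each sorted cell at this depth. Ly6a or Itgam was detected in 5.49% and 19.7%.

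Across the genome the contrast was one-sided. Of 12126 genes with at least 20 UMIs over both libraries, 35 (0.289%) were more than 2-fold higher in the GMP sort and 637 (5.25%) more than 2-fold lower, and 11454 lay between. With the offset of 1 CPM none was more than 4-fold higher, whereas 164 were more than 4-fold lower and 38 more than 16-fold lower. Without the offset Gzmb, on 61 and 6 UMIs, was 10.07-fold higher. The least folds given below for genes with no UMI in the GMP sort are also without the offset. Among the 637 lower genes, 127 had no UMI at all in the GMP sort. Immunoglobulin genes made up 60 of the 637. They took 7.21% of all UMIs in the Lin-/CD11b+ library and 0.0119% in the GMP library. Leaving them out of the totals shifted ratios by up to -0.11, and by less for low genes. The median over all genes counted was 0.06. In terms of shares of cells, 3728 genes were at least 10 points higher in the GMP sort and 60 lower as deposited. After thinning these counts were 401 and 98, and the median difference fell from 4.89 to 0.159 points.

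**Figure D1:**
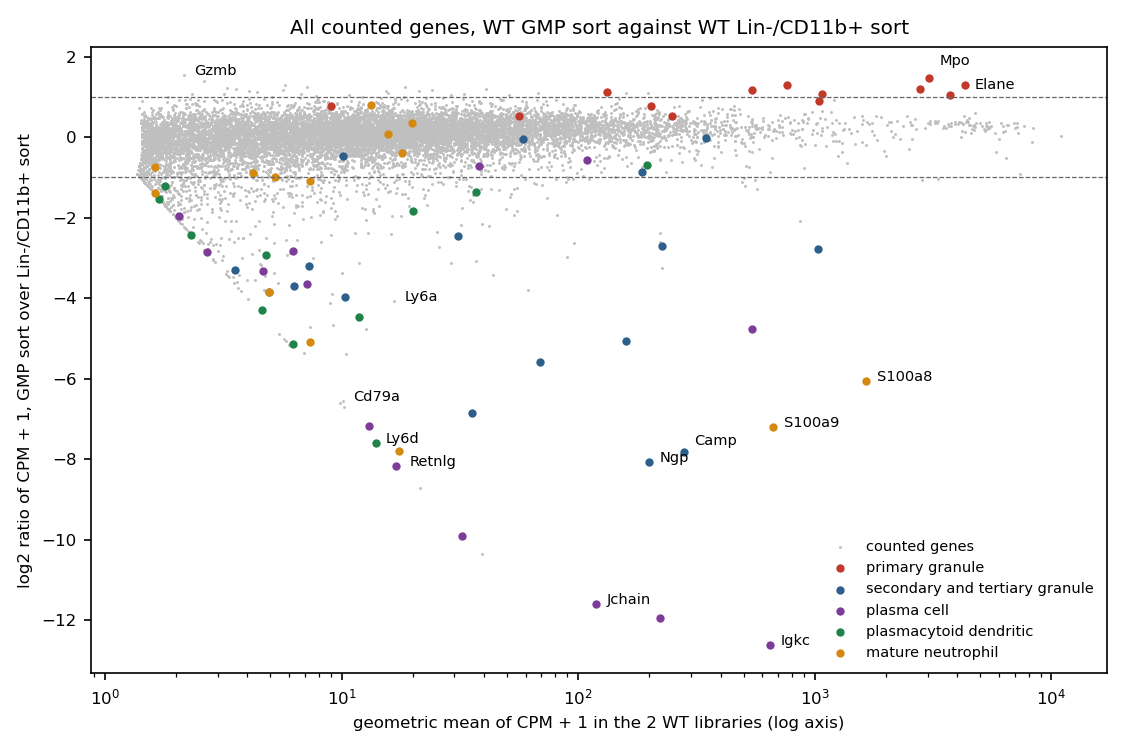
Level and ratio of each counted gene. The x axis is the geometric mean of CPM + 1 in the 2 WT libraries on a log scale and the y axis the log2 ratio of CPM + 1, GMP sort over Lin-/CD11b+ sort, with dashed lines at 2-fold and coloured points for 5 gene lists. The upper side ends at a ratio of 1.54 for Gzmb, whereas the lower side runs to -12.62 for Igkc.

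The genes above 2-fold in the GMP sort were led by primary granule genes. All 13 members of the primary granule list lay above 0 and 8 of them above 2-fold, where 0.289% of all genes did, with a median ratio of 1.07. Together the list took 2.72% of UMIs in the GMP sort and 1.18% in the other. Mpo, which encodes myeloperoxidase, was at 5059 CPM in the GMP sort and 1817 CPM in the Lin-/CD11b+ sort, a ratio of 1.48 with an interval of the CPM ratio from 1.46 to 1.49. Elane, which encodes neutrophil elastase, was at 6753 and 2733 CPM, a ratio of 1.30. Ctsg, which encodes the granule protease cathepsin G, was at 4225 and 1836 CPM, a ratio of 1.202. Their levels in the GMP sort were thus between 2.30-fold and 2.79-fold of those in the Lin-/CD11b+ sort. Prtn3, which encodes proteinase 3, was at 5370 and 2576 CPM, a ratio of 1.06. Ms4a3, a membrane protein gene typical of GMPs and their offspring, was at 1188 and 485 CPM, a ratio of 1.29. Nkg7, which encodes a granule membrane protein, was at 816 and 358 CPM, a ratio of 1.19. Prss57, a gene for another granule serine protease, was at 195 and 88.6 CPM, a ratio of 1.13. The remaining member above 2-fold was Calr, which encodes the chaperone calreticulin of the endoplasmic reticulum, at 1558 and 742 CPM, a ratio of 1.07. The lowest ratio of the list was that of Fut8, a fucosyltransferase gene, at 0.52. With TMM scaling or with totals without immunoglobulin genes 6 members were above 2-fold, without Calr (0.99 and 0.96) and Prtn3 (0.98 and 0.95). Without plasma cell-like cells 5 were, without Prss57 (0.97) as well.

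The difference in these genes was one of how many cells carried many copies. At 5000 UMIs per cell, Mpo was detected in 99.3% of GMP-sort cells (interval 98.7 to 99.7) and 58.3% of the others (56.0 to 60.5). The median cell held 24 Mpo UMIs in the GMP sort and 1 in the other, with 87.9% and 27.2% of cells at 10 UMIs or more. For Elane the medians were 25.5 and 1 UMIs, and 96.7% and 51.7% of cells had at least 1. Ctsg was found in 99.3% and 63.1% of cells, with medians of 17 and 2 UMIs. Ms4a3 was found in 89.3% and 37.7%, and Nkg7 in 77.7% and 37.9%. In the Lin-/CD11b+ library the upper quartile was 11 Mpo UMIs and 10 Elane UMIs, below the medians of the GMP sort.

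**Figure D2:**
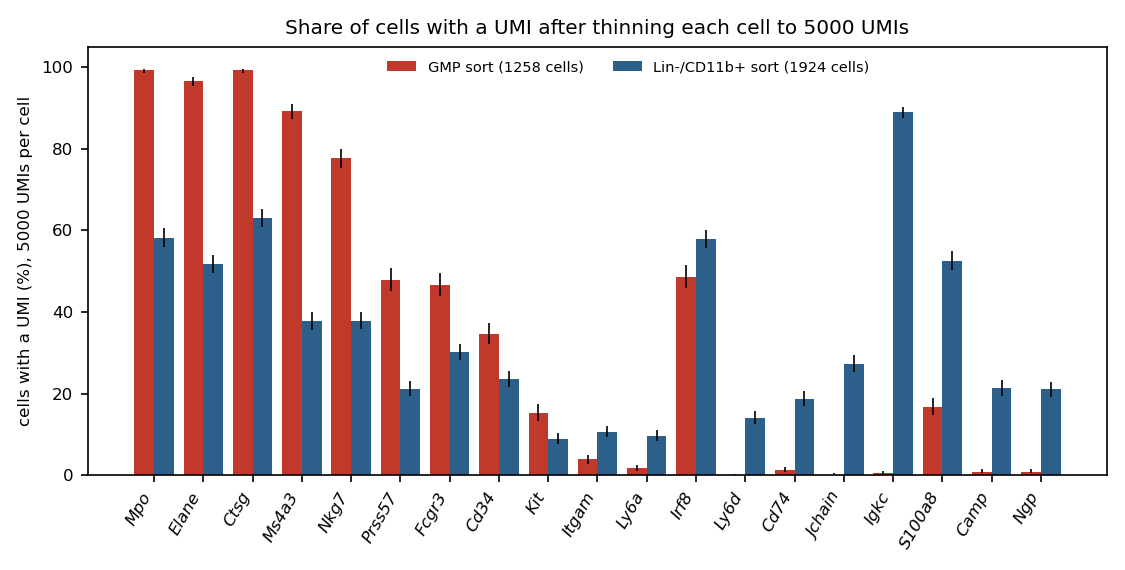
Share of cells with a UMI for 19 genes after each cell was thinned to 5000 UMIs. Bars give the percent of cells of the GMP sort (red) and of the Lin-/CD11b+ sort (blue), and lines the exact binomial interval at 95%. Mpo was found in 99.3% and 58.3% of cells, Kit in 15.3% and 8.94%, and Igkc in 0.398% and 89.0%.

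Other genes among the 12 highest ratios came from more than 1 lineage. Pde4d, which encodes a phosphodiesterase that degrades cyclic AMP, was at 61.2 and 25.9 CPM, a ratio of 1.21. Serpine2, a protease inhibitor gene, was at 27.5 and 11.0 CPM, a ratio of 1.24. Ppic, which encodes cyclophilin C, was at 35.2 and 14.99 CPM, a ratio of 1.18, and Trim45, which encodes a tripartite motif protein, was at 21.9 and 9.30 CPM, a ratio of 1.15. The last members were a pair of basophil and eosinophil genes. Prg3, a gene of the eosinophil major basic protein family, was at 10.0 and 3.62 CPM, a ratio of 1.25. Ms4a2, the beta chain of the high-affinity IgE receptor, was at 30.8 and 13.3 CPM, a ratio of 1.15, and 97.4% of its UMIs in the GMP library lay in basophil-like cells. The highest ratio of any counted gene was 1.54 for Gzmb, which encodes granzyme B, on only 61 and 6 UMIs. These lay in 6 cells of the GMP sort and 2 of the other.

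Genes of the later granules ran the other way. Of 17 secondary and tertiary granule genes, all lay below 0 and 13 more than 2-fold below, where 5.25% of all genes did, with a median of -3.31. Ngp, which encodes a neutrophilic granule protein, was at 11.1 CPM in the GMP sort and 3254 CPM in the Lin-/CD11b+ sort, a ratio of -8.07. Camp, which encodes the cathelicidin antimicrobial peptide, was at 17.6 and 4188 CPM, a ratio of -7.82. Ltf, which encodes the iron-binding protein lactoferrin, was at 2.31 and 384 CPM, a ratio of -6.86. Chil3, a chitinase-like protein gene, was at 8.96 and 479 CPM, a ratio of -5.59. All 4 of these genes stayed under 20 CPM in the GMP sort. Hp, which encodes haptoglobin, was the exception at the top of the list with 344 and 350 CPM, a ratio of -0.02. Lyz2, the lysozyme gene shared by monocytes and neutrophils, was at 395 and 2703 CPM, a ratio of -2.77.

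Genes of the mature neutrophil were lower for 7 of 14 members, against 5.25% of all genes, with a median of -1.04. S100a8, a subunit of the calcium-binding protein calprotectin, was at 201 and 13540 CPM, a ratio of -6.07. S100a9, the other subunit, was at 54.1 and 8093 CPM, a ratio of -7.20. Retnlg, which encodes a resistin-like secreted protein, had 4 UMIs in the GMP sort and 5910 in the other. Ly6g, the antigen of mature mouse neutrophils, had 6 and 955 UMIs. Receptors of the list were closer to balance, with Csf3r, the G-CSF receptor gene, at 21.4 and 16.4 CPM (0.36) and Cxcr2 at 2.10 and 4.76 CPM (-0.90).

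The UMIs of Camp, Ltf and S100a8 lay mostly in few cells, whereas Hp had a UMI in 73.1% of thinned GMP-sort cells and 52.2% of the others. Clusters were made on all 4 libraries together and named from marker genes, and in the Lin-/CD11b+ library 153 neutrophil-like cells held 97.0% of Camp and 95.8% of S100a8 UMIs. The GMP library held 1 neutrophil-like cell, and that cell carried 368 of 402 Camp UMIs (91.5%), 50 of 53 Ltf UMIs and 1494 of 4599 S100a8 UMIs (32.5%). Most other S100a8 UMIs of the GMP sort (59.4%) lay in neutro-biased GMP-like cells. That cell had 5319 UMIs in all.

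The promoters of a few of these genes are shown because the 2 sorts separate genes of the same lineage by the stage at which they are transcribed, and because PU.1 and C/EBP factors are known regulators of granule genes. Each is the 120 bases before the RefSeq gene start in build GRCm38.p6, on the plus strand, 5′ to 3′. Capitals mark matches on either strand to GAGGAA, the letters searched for PU.1, or to TTGCNNAA, the letters searched for C/EBP. The first pair, Elane at chr10:79886192-79886311 and Prtn3 at chr10:79879547-79879666, was higher in the GMP sort, and the second pair, Ngp at chr9:110419688-110419807 and Ltf at chr9:111019172-111019291, was lower.
Elane: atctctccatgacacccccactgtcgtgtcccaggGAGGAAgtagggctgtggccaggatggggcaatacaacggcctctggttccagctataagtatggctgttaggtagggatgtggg
Prtn3: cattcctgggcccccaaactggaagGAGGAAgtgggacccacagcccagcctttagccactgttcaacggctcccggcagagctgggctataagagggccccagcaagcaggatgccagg
Ngp: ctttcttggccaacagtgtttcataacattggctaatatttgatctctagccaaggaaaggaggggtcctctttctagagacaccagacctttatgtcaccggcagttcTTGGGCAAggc
Ltf: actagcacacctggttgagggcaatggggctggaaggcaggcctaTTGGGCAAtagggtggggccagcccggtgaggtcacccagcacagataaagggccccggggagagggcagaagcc

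In these windows Elane and Prtn3 held the PU.1 letters and Ngp and Ltf the C/EBP letters. The 4 promoters were chosen after their matches were seen, and others searched did not divide in this way. Within 120 bases, Mpo, Ctsg and Ms4a3 held neither set of letters, nor did Camp and S100a9, and S100a8, which was lower in the GMP sort, held the PU.1 letters. Over 250 bases before the start, the C/EBP letters were found in 1 of 11 primary granule promoters (Clec11a) and in 6 of 13 secondary and tertiary granule promoters (Ltf, Ngp, Lcn2, Mmp8, Anxa1 and Fcnb), against 9.55% of 27025 promoters of the same length. The PU.1 letters were found in 6 of 11 and 7 of 13, against 23.1%. For TGTGGT, the letters searched for RUNX factors, the counts were 2 of 11 and 2 of 13, against 14.2%. Prss57 and Serpinb1a of the first list, and Mmp9, Hp, Wfdc21 and Orm1 of the second, were not matched. A match is a run of letters and not a measured site.

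Genes of monocytic differentiation were lower for 13 of 19 members, against 5.25% of all genes, with a median of -1.93. Fn1, which encodes fibronectin, was at 0.830 and 45.5 CPM, a ratio of -4.67. S100a4, a calcium-binding protein gene, was at 30.8 and 251 CPM (-2.99), and Lgals3, the galectin 3 gene, at 96.8 and 506 CPM (-2.37). Ccr2, the chemokine receptor that monocytes use to leave the marrow, was at 43.2 and 97.8 CPM (-1.16). Members also used here as markers of mono-biased GMP-like cells varied. Ctss, the cathepsin S gene, was at -1.93, and Ccr2 is such a marker too, while Ly86 was at -0.63 and Ms4a6c at -0.42. Csf1r, the M-CSF receptor gene, was at 26.3 and 35.6 CPM (-0.42), F13a1, the coagulation factor XIII A chain gene, at 197 and 209 CPM (-0.08), and Ly6c2, which encodes Ly6C, at 1844 and 1650 CPM (0.16). In the Lin-/CD11b+ library 61.8% of Fn1 UMIs lay in monocyte-like cells, of which there were 280 against 12 in the GMP sort.

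Most dendritic and lymphoid genes were also lower in the GMP sort, where 5.25% of all genes were. Among plasmacytoid dendritic genes 10 of 11 were lower, with a median of -2.42, or -3.86 when the 3 members with no UMI in the GMP sort were set to a floor of 3 counts per library. Ly6d, a surface protein gene of lymphoid and plasmacytoid precursors, had 0 and 4382 UMIs, which makes it at least 1474-fold higher in the Lin-/CD11b+ sort. Siglech, a receptor gene of plasmacytoid dendritic cells, had 1 and 444 UMIs. Conventional dendritic genes were lower for 9 of 12 members, with a median of -1.49, and MHC class II genes for 5 of 8, with a median of -1.23. Cd74, the invariant chain that escorts MHC class II molecules, was at 89.0 and 545 CPM, a ratio of -2.60. In the GMP library 2018 of its 2037 UMIs lay in 9 conventional DC-like cells.

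Of 12 B lymphocyte genes 11 were lower, against 5.25% of all genes, with a median of -2.27, or -3.92 with the 5 members at 0 set to the floor. Cd79a, a signalling chain of the B cell receptor, had 1 and 2195 UMIs. Plasma cell genes were lower for 12 of 14 members, with a median of -4.21, or -5.17 with the floor. Igkc, the kappa light chain constant gene, had 164 UMIs in the GMP sort and 1169443 in the Lin-/CD11b+ sort, 7.17 and 51560 CPM, and 1 cell of the GMP sort held 153 of the 164. Jchain, which encodes the joining chain of secreted IgA and IgM, was at 1.14 and 6638 CPM, a ratio of -11.60. Mzb1, an endoplasmic reticulum chaperone gene of marginal zone B and plasma cells, had 2 and 3529 UMIs. Xbp1, the factor that expands the secretory pathway, was at 89.0 and 132 CPM (-0.56), and the ratio was 0.26 without plasma cell-like cells. Genes of the T and NK list were lower for 10 of 11 members, with a median of -1.60, or -3.64 with the 6 members at 0 set to the floor. Klrd1, which encodes the NK receptor chain CD94, had 12 and 407 UMIs. Of the latter, 58.5% lay in an unnamed cluster led by Cd7, Siglech and Cd209a, and 21.4% in an unnamed cluster led by Ccl5 and Wfdc17 with Trbc2 and Cd3g. Of the lineage antigens, 3 of 6 counted were lower. Macrophage genes were lower for 1 of 7, Hmox1, which encodes haem oxygenase 1, at 0.743 and 5.20 CPM, while Apoe, the apolipoprotein E gene, was at -0.04.

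Immunoglobulin RNA was found in nearly all cells of 1 library. In the Lin-/CD11b+ library 158 plasma cell-like cells held 96.7% of Igkc UMIs, yet Igkc had a UMI in 98.4% of HSPC-like, 98.2% of mono-biased GMP-like, 99.3% of neutro-biased GMP-like and 95.4% of neutrophil-like cells there, with a median of 4 or 5 UMIs per cell. In the GMP library Igkc had a UMI in 0.485% of HSPC-like, 0.915% of mono-biased and 1.21% of neutro-biased cells. The thinned share over all cells was 89.0% in the Lin-/CD11b+ sort and 0.398% in the GMP sort. Neutrophil genes showed the same spread to a smaller extent. Camp had a UMI in 36.9% of the Lin-/CD11b+ cells in the mono-biased class and 0.458% of the GMP-sort cells in it, at median depths of 13580 and 18780 UMIs per cell, and S100a8 in 80.3% and 18.1%. Outside plasma cell-like and neutrophil-like cells, most shares of cells with these transcripts are therefore at a level seen across lineages of that library. Such shares are not read as expression here. S100a8 in neutro-biased GMP-like cells stood above that level. It was at 856.7 CPM there with a UMI in 94.1% of cells, against 112.7 CPM and 76.5% in HSPC-like cells. In the GMP library it had a UMI in 68.3% of neutro-biased and 18.9% of HSPC-like cells. Igkc in B lymphocyte-like cells, with a median of 38 UMIs, was also above that level.

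Myeloid transcription factors were split. Of 19 counted, 1 was higher, against 0.289% of all genes, and 7 were lower, against 5.25%, with a median of -0.74. Gfi1, a repressor needed for neutrophil fate, was at 10.1 and 4.45 CPM, a ratio of 1.02. It was just under 2-fold with TMM scaling (0.96), with totals without immunoglobulin genes (0.94), without cells at or above 5% mitochondrial UMIs (0.996) and without the 1% of cells with most UMIs (0.97), and at 0.46 in the Tet2 KO libraries. Cebpa, the factor that opens the GMP stage, was at 24.0 and 14.9 CPM (0.65), and Cebpe, which drives late granule genes, at 104.8 and 68.7 CPM (0.60). Myb, a factor of proliferating progenitors, was at 193 and 114 CPM (0.76), and Myc at 63.2 and 39.9 CPM (0.65). Spi1, which encodes PU.1, and Runx1 were level, with ratios of 0.03 and 0.01. On the lower side stood factors of monocytic and dendritic fates. Irf8, required for monocytes and dendritic cells, was at 284 and 473 CPM (-0.74), Klf4 at 20.9 and 57.8 CPM (-1.42), and Id2 at 14.1 and 67.3 CPM (-2.18). Irf4 had 0 and 142 UMIs, which makes it at least 47.8-fold higher in the Lin-/CD11b+ sort. Of the Irf8 UMIs in that sort, 39.2% lay in a cluster of 267 cells led by Cd7, Siglech, Ly6d and Cd209a that had no cell of the GMP sort and was left unnamed.

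Of 19 stem and early progenitor genes 0 were higher and 2 lower, near the 5.25% of all genes that were lower, with a median of -0.38. With the mean over cells, or with totals without immunoglobulin genes, 4 were lower. Dntt, the terminal transferase of lymphoid progenitors, was at 0.612 and 66.1 CPM (-5.38), and 77.0% of its UMIs in the Lin-/CD11b+ sort lay in an unnamed cluster of 102 cells led by Dntt with Flt3 and Il7r. Flt3, the receptor of lymphoid and dendritic progenitors, was at 8.13 and 34.2 CPM (-1.95). Hlf, a stem cell factor, was at 3.93 and 6.17 CPM (-0.54). Meis1, the homeobox partner of Hoxa9, was at 10.4 and 13.2 CPM (-0.32), and Hoxa9 itself at 18.2 and 15.1 CPM (0.25). Erythroid and megakaryocyte genes had no member past 2-fold among 11, with a median of -0.03, which became 0.10 with the mean over cells and 0.06 with no filter on low counts. Gata1, the erythroid master regulator, was at 3.32 and 1.28 CPM (0.92). Among basophil, mast cell and eosinophil genes 2 of 14 were higher, against 0.289% of all genes, and 1 lower, against 5.25%. The median was 0.54. The 2 higher genes were Gzmb and Ms4a2, and neither was past 2-fold with an offset of 10 CPM. Mcpt8, a basophil protease, was at 349 and 404 CPM (-0.21) and was detected in 20.2% and 9.20% of thinned cells. Cpa3, the mast cell carboxypeptidase, was at 126 and 71.6 CPM (0.80), and Ccl3, a chemokine gene, at 16.9 and 37.9 CPM (-1.12).

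**Figure D3:**
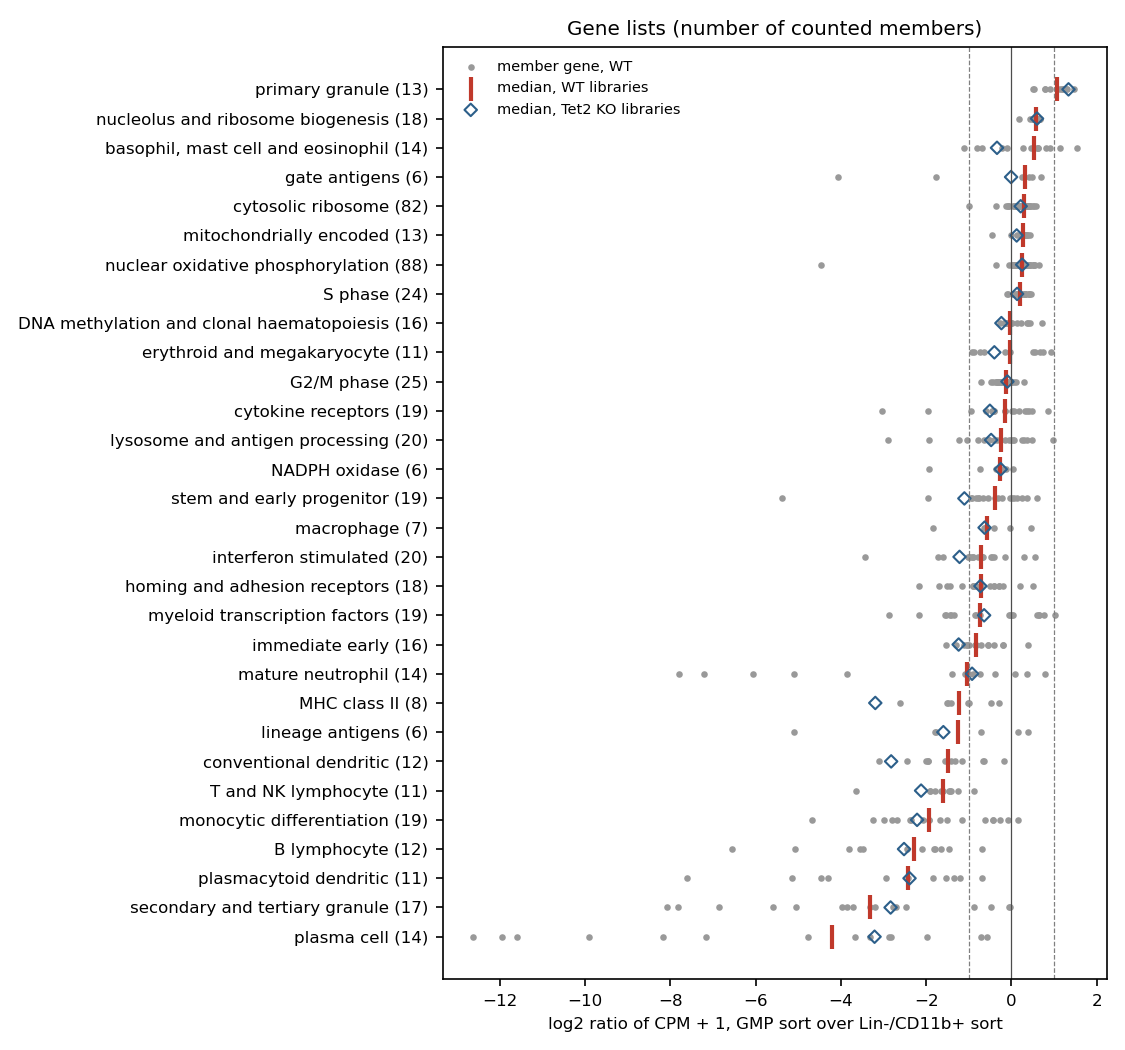
Ratios of the members of each gene list, with the log2 ratio of CPM + 1, GMP sort over Lin-/CD11b+ sort, on the x axis. Grey points are counted member genes in the WT libraries, red bars the WT medians, open diamonds the medians of the Tet2 KO libraries and dashed lines 2-fold. The WT medians were 1.07 for primary granule genes, -3.31 for secondary and tertiary granule genes and -4.21 for plasma cell genes.

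Receptor and adhesion genes were mixed. Of 19 cytokine receptors 0 were higher and 2 lower, near the 5.25% of all genes that were lower, with 8 above 0, 11 below and a median of -0.15. Ifngr1, the ligand-binding chain of the interferon gamma receptor, was at 195 and 108 CPM, a ratio of 0.85. Il7r, the receptor of lymphoid precursors, had 0 and 164 UMIs, at least 55.2-fold higher in the Lin-/CD11b+ sort. Csf2ra and Csf2rb, the chains of the GM-CSF receptor, were at -0.14 and 0.07. Homing and adhesion genes were lower for 5 of 18, against the same 5.25%, with a median of -0.72. Itgb2, the integrin chain that pairs with CD11b, was at 9.70 and 33.9 CPM (-1.70), Itgb7 at 17.6 and 82.2 CPM (-2.16), and Cxcr4, the receptor that retains cells in the marrow, at 28.7 and 47.6 CPM (-0.71). Lysosomal genes were lower for 4 of 20, with Psap, the saposin precursor, at 332 and 776 CPM (-1.22), while Cd63, a tetraspanin of azurophil granules and lysosomes, was at 503 and 256 CPM (0.97). Of 6 NADPH oxidase genes, Cybb, the catalytic subunit, was past 2-fold at 26.5 and 104 CPM (-1.93).

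Housekeeping groups moved together by small amounts. All 18 nucleolus and ribosome biogenesis genes lay above 0 with none past 2-fold, and their median was 0.58 against 0.06 over all genes. Npm1, the nucleolar chaperone nucleophosmin, was at 1910 and 1314 CPM (0.54), and Ncl, which encodes nucleolin, at 0.57. Cytosolic ribosomal protein genes were above 0 for 76 of 82 with a median of 0.30, nuclear oxidative phosphorylation genes for 85 of 88 with a median of 0.25, and mitochondrially encoded genes for 11 of 13 with a median of 0.27. Without immunoglobulin genes in the totals these medians would each be lower by up to 0.11. Within HSPC-like, mono-biased, neutro-biased and basophil-like cells the ribosomal protein medians were -0.01, 0.04, 0.02 and 0.19. In the same order the nuclear oxidative phosphorylation medians were 0.08, -0.02, -0.06 and 0.12, and the mitochondrially encoded medians 0.03, 0.15, 0.13 and -0.04. S phase genes had a median of 0.21 with 22 of 24 above 0, and G2/M genes -0.14 with 21 of 25 below. Immediate early genes were lower for 6 of 16, against 5.25% of all genes, with a median of -0.83. Fos, part of the AP-1 factor, was at 398 and 652 CPM (-0.71), and Nr4a1 at 3.801 and 12.8 CPM (-1.53). Interferon stimulated genes were lower for 4 of 20 with a median of -0.71, with Ifi27l2a at 12.3 and 142 CPM (-3.43). Genes of DNA methylation and clonal haematopoiesis had none past 2-fold among 16, and a median of -0.03.

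The makeup of the 2 sorts differed in the same sense as the genes. Mono-biased GMP-like cells were 437 (34.7%) of the GMP sort and 279 (14.5%) of the other, and neutro-biased GMP-like cells 331 (26.3%) and 153 (7.95%). HSPC-like cells, named from raised stem and early progenitor markers, were 206 (16.4%) and 255 (13.3%), and basophil-like cells 106 (8.43%) and 66 (3.43%). In the HSPC-like class Mpo had a UMI in 100% of GMP-sort cells and 85.1% of the others as deposited, and Elane in 99.0% and 51.8%. The name therefore does not mean that the GMP-sort cells of this class are stem cells. Monocyte-like cells were 12 (0.954%) and 280 (14.6%), and neutrophil-like cells 1 (0.0795%) and 153 (7.95%). Plasma cell-like cells numbered 0 and 158 (8.21%), and B lymphocyte-like cells 0 and 37 (1.92%). For a count of 0 in the GMP sort the interval of the share ends at 0.293%. Conventional DC-like cells were 9 and 16. The 4 unnamed clusters held 156 cells (12.4%) of the GMP sort, all in 1 cluster with Mpo among its leading genes, and 527 (27.4%) of the other. These shares rest on clusters made from the same genes as above, the gates set them in part, and 67.6% of WT cells kept their class name at the finer Leiden resolution of 1.2.

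The share of a gene's UMIs held by a class depends on both the number of its cells and the level in them. For Mpo, neutro-biased GMP-like cells held 40.9% of the UMIs in the GMP library and 37.1% in the other, mono-biased GMP-like cells 28.1% and 27.4%, and HSPC-like cells 14.0% and 14.6%, so its UMIs were divided alike although the totals were 115808 and 41210. For Irf8, mono-biased GMP-like cells held 73.1% in the GMP sort and 21.6% in the other, where monocyte-like cells held 15.6%. For Cd34, HSPC-like cells held 37.7% and 48.0%. A lower share of cells of a class and less RNA per cell cannot be told apart in the sums, so the contrast was repeated within the 4 classes that had at least 50 cells in both libraries.

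**Figure D4:**
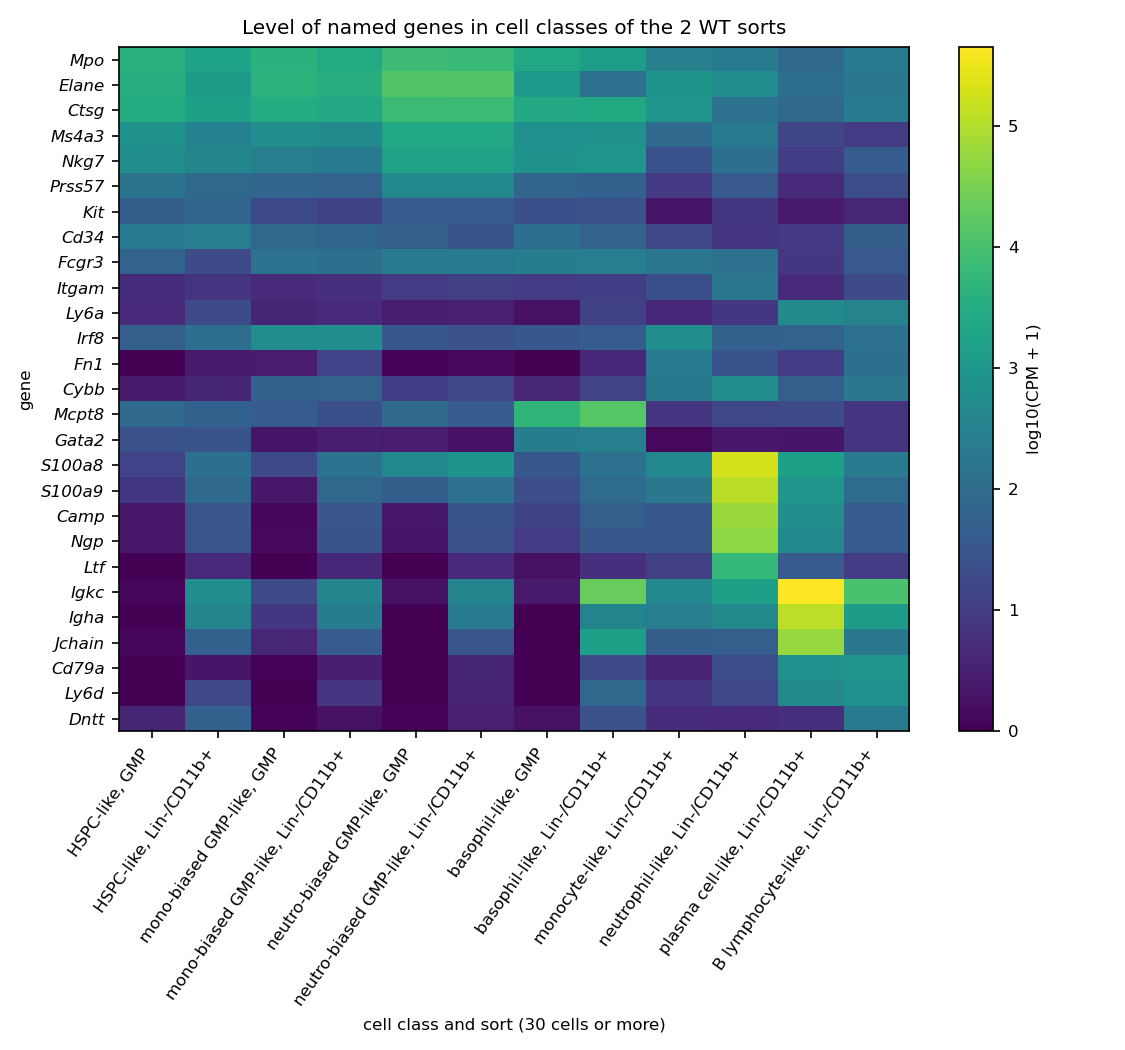
Levels of 27 genes (y axis) in each class of cells and sort with at least 30 cells (x axis). The colour is log10 of CPM + 1 from summed UMIs, from dark at 0 to yellow at the highest level. Elane in neutro-biased GMP-like cells was alike in both sorts, at 13090 and 13690 CPM, and Igkc was above 0 in each class of the Lin-/CD11b+ sort, at 350.0 CPM in neutro-biased GMP-like cells.

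Within GMP-like cells the sorts were close. The classes were made from the expression of these same cells. Elane, Prtn3, Ctsg and Mpo were markers of the neutro-biased class and Irf8 of the mono-biased class. Closeness of such genes within a class is thus in part set by how the class was made. Among mono-biased GMP-like cells, 41 of 9766 genes (0.42%) were more than 2-fold higher in the GMP sort and 60 (0.614%) lower. Among neutro-biased GMP-like cells, 122 of 9234 (1.32%) were higher and 61 (0.661%) lower. Of the 637 genes lower over all cells, 246 were counted in mono-biased cells, where 39 were also lower and 157 were within 1.5-fold, and 145 in neutro-biased cells, where 17 were also lower and 102 within 1.5-fold. The genes higher over all cells were past 2-fold for 1 of 26 counted in mono-biased cells and 3 of 32 in neutro-biased cells. Primary granule genes had medians of 0.24 and -0.02. Elane in neutro-biased cells was at 13090 CPM in the GMP sort and 13690 CPM in the other (-0.07), and Mpo at 7407 and 6439 CPM (0.20). In mono-biased cells Mpo was at 4036 and 2838 CPM (0.51), and Irf8 at 589 and 582 CPM (0.02). Cd34 in neutro-biased cells was at 51.4 and 28.2 CPM, a ratio of 0.84 with an interval from 0.48 to 1.26. The lowest ratios with at least 100 UMIs in mono-biased cells were those of S100a9, Camp, Ngp, Jchain and S100a8, from -4.998 to -2.94. These transcripts were also found in other classes of the Lin-/CD11b+ library, with S100a8 at 199200 CPM in neutrophil-like and Jchain at 59340 CPM in plasma cell-like cells. In neutro-biased cells S100a8 was at 427.5 CPM in the GMP sort and 856.7 CPM in the other.

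HSPC-like cells differed more between the sorts. They comprised cluster 3, with 114 and 155 cells, and cluster 8, with 92 and 100. Whether the class held the same mixture of cells in both sorts was not tested. Clusters at Leiden resolution 1.2 need not hold the same cells as this class. There the cluster with all 12 HSPC markers raised had 23 cells of the GMP sort and 131 of the other. Another HSPC-like cluster had 95 and 95, and one with 3 of 12 raised had 118 and 81. Of 9430 genes 98 (1.04%) were higher in the GMP sort and 243 (2.58%) lower, and 88 of the 190 genes counted there that were lower over all cells were lower here too. Primary granule genes had a median of 0.77, with Elane at 3615 and 1348 CPM (1.42), Ms4a3 at 778 and 303 CPM (1.36) and Mpo at 4158 and 1888 CPM (1.14). Elane had a UMI in 99.0% and 51.8% of these cells as deposited. Cebpe was at 170 and 44.9 CPM, a ratio of 1.90 with an interval from 1.66 to 2.19. The CD16/32 genes of the gate showed the difference as well, with Fcgr3 at 63.5 and 18.5 CPM (1.72) and Fcgr2b at 53.5 and 21.98 CPM (1.25), whereas Kit was at 45.3 and 68.2 CPM (-0.58) and Cd34 at 230 and 265 CPM (-0.21). Prg2, the eosinophil major basic protein gene, was at 46.3 and 2.83 CPM, from 181 and 9 UMIs.

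Stem cell genes within HSPC-like cells were lower in the GMP sort for 7 of 18 members and higher for 0, where 2.58% of all genes were lower, with a median of -0.74. At Leiden resolution 1.2 the cluster with all markers raised had fewer cells of the GMP sort than of the other, and its part in these values was not tested. Procr, which encodes the protein C receptor that marks stem cells, had 8 and 29 UMIs (-1.73). Mecom, a stem cell factor, was at 6.65 and 18.8 CPM (-1.37), Hlf at 13.8 and 34.9 CPM (-1.27) and Flt3 at 13.8 and 54.96 CPM (-1.92). Meis1 was at 29.4 and 59.0 CPM (-0.98), just short of 2-fold, and Hoxa9 was level at 33.5 and 33.0 CPM. Ly6a, excluded by the GMP gate, was at 4.09 and 20.1 CPM (-2.05). Monocytic and dendritic factors were lower too, with Irf8 at 50.9 and 112 CPM (-1.12) and Id2 at 1.53 and 10.4 CPM (-2.16). Nr4a1 was at 3.84 and 24.2 CPM (-2.38). These genes also took part in the clustering, and the HSPC-like cells had median depths of 18890 and 11830 UMIs, whose part in these values was not tested.

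Basophil-like cells of the 2 sorts differed in basophil protease genes among others. In these 106 and 66 cells 305 of 6206 genes (4.91%) were higher in the GMP sort and 148 (2.38%) lower, on smaller totals of 1302068 and 580847 UMIs. With at least 100 UMIs in 1 library and immunoglobulin genes apart, the lowest ratios were those of Jchain (-10.59), Cd74 (-7.47) and the protease inhibitor gene Slpi (-3.77). Mcpt8 was at 4971 and 14790 CPM (-1.57), and Prss34, another basophil protease, at 4484 and 16170 CPM (-1.85). Prg2 was at 1060 and 103 CPM (3.35). Elane was at 1101 and 134 CPM (3.03), with a median of 3 and 1 UMIs per cell, and in the GMP sort 26.4% of its UMIs lay in the 2 cells with most. Prtn3 was at 1210 and 460 CPM (1.40), with medians of 8 and 3 UMIs. Mpo was at 2419 and 1444 CPM, with medians of 20.5 and 9.5 UMIs and a UMI in 99.1% and 95.45% of these cells as deposited. The GMP library as a whole held Elane at 6753 CPM. The source of this neutrophil granule RNA in basophil-like cells was not tested. Ms4a2 was level, at 527 and 487 CPM (0.11). Cpa3 was at 1604 and 2214 CPM (-0.47). In the Lin-/CD11b+ sort these cells also held Igkc at 22040 CPM, with a median of 4 UMIs per cell and 7215 of the 12799 UMIs in 1 cell. Doublets were kept, and their part in these values was not tested.

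**Figure D5:**
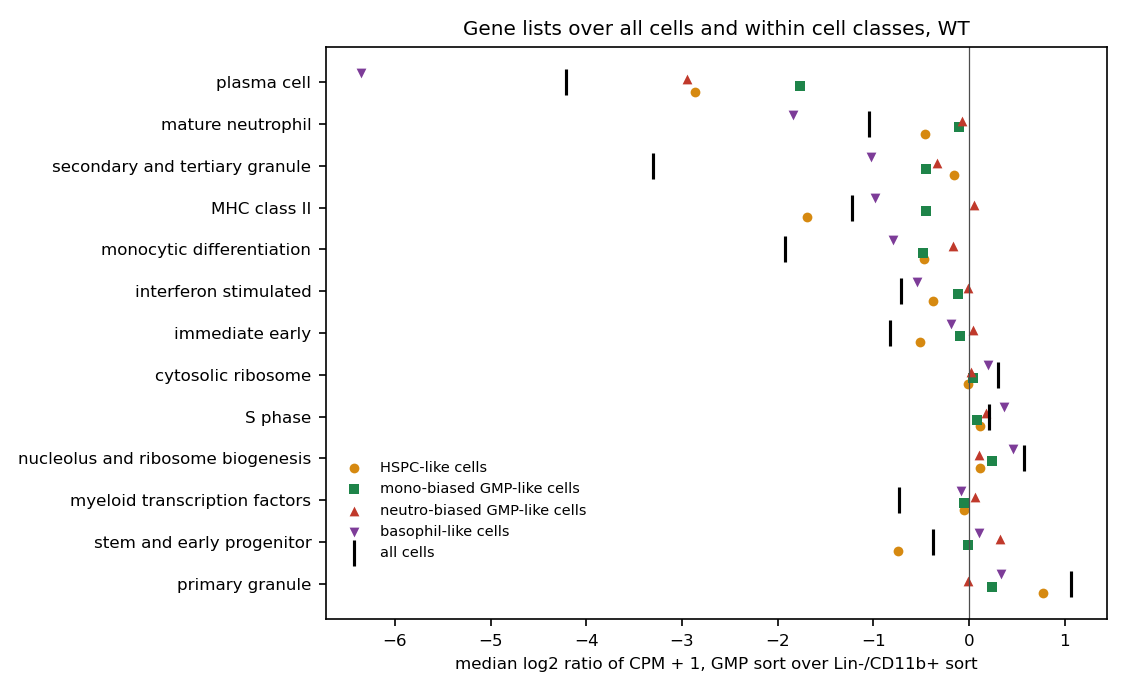
Medians of 13 gene lists over all cells and within 4 classes of cells. The x axis is the median log2 ratio of CPM + 1, GMP sort over Lin-/CD11b+ sort, black bars are all cells and coloured symbols the classes. For primary granule genes the median was 1.07 over all cells, 0.77 in HSPC-like and -0.02 in neutro-biased GMP-like cells, and for stem and early progenitor genes -0.38 over all cells and -0.74 in HSPC-like cells.

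The Tet2 KO libraries gave the same sorts from another mouse and genotype, and are no replicate of the WT pair. There 54 of 12750 genes (0.424%) were higher in the GMP sort and 985 (7.73%) lower. Of the 637 genes lower in the WT pair, 538 were also past 2-fold lower and 632 were below 0 in the Tet2 KO pair, and of the 35 higher genes 19 were past 2-fold and 35 above 0. Primary granule genes had a median of 1.34, with Mpo at 1.66 and Elane at 1.83. Secondary and tertiary granule genes had a median of -2.83, monocytic genes -2.21 and plasma cell genes -3.21. The gate antigens had a median of -0.01 there, with Fcgr3 at 1.03, Cd34 at 0.02 and Kit at -0.04, and stem and early progenitor genes -1.10. Basophil, mast cell and eosinophil genes had a median of -0.34, opposite in sign to the WT pair.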

How the data were processed

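RNA was measured in single cells of 4 libraries of mouse bone marrow, and the 2 WT libraries were compared. Per the deposited processing notes, reads were handled with Cell Ranger 3.1.0 and Seurat and the build mm10. The authors deposited whole-number counts of UMIs for 18695 genes in 8969 cells with a table of the library and mouse of each cell, and no column was left unused (0). The filter they state kept cells with 200 genes and 5000 UMIs or more and less than 5% mitochondrial counts, and cells past the last limit were in the deposited counts. The protocol and the design text name different kit versions.

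UMIs were summed over the cells of a library and scaled to CPM. Shares of cells had exact binomial intervals, and ratios of CPM had exact conditional binomial intervals. Ratios used an offset of 1 CPM, which understates the change of low genes, and their intervals are those of the ratio without it. Genes with at least 20 UMIs over both libraries were counted, and past 2-fold was called higher or lower. With 1 library a side no p-value was computed. Clusters used 2000 variable genes, 30 components, 30 neighbours and Leiden resolution 0.8 (16 clusters), with Python 3.11.15, numpy 2.4.6, scipy 1.17.1, pandas 2.3.3, scanpy 1.11.5, leidenalg 0.10.2, igraph 0.11.9 and scikit-learn 1.9.0. A cluster was named if at least 3 markers of a class were raised and no other class had more of its markers among the 10 leading genes. A tie left the cluster unnamed where it was above 1 marker each, as in cluster 12. That rule was chosen after the clusters were seen, and cluster 13 was left unnamed by hand. No doublet caller was run. Named genes were the 12 highest and 12 lowest ratios with at least 200 UMIs in 1 library, immunoglobulin genes apart, the gate antigens, Tet2, the most abundant, highest and lowest member of each list, and the 5 highest and 5 lowest per class with at least 100 UMIs in 1 library. Other members named were chosen after their values were seen. The members and lists were chosen with earlier results of these data known. The code was tested on simulated data. Alternatives were scaling by TMM (edgeR 4.0.16, R 4.3.3), the mean over cells, cell filters, totals without immunoglobulin genes, other offsets and count minimums, thinned cells (seed 1) and Leiden resolution 1.2 (20 clusters). Promoters came from RefSeq. Figures were drawn with matplotlib 3.10.9.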

Additional observations from a re-analysis of the deposited data

Results flagged for a closer look

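The following values moved in opposite directions in the WT and the Tet2 KO pair of sorts. The difference between the genotypes was not tested, since each had 1 library per sort. Gata2, a factor of stem cells and basophils, had a log2 ratio of GMP sort over Lin-/CD11b+ sort of 0.61 in WT, from 19.1 and 12.2 CPM, and -0.46 in Tet2 KO, from 8.46 and 12.1 CPM. Of its WT UMIs, 72.5% in the GMP sort and 60.5% in the other lay in basophil-like cells. Ier3, an immediate early gene, had ratios of 0.39 (57.8 and 44.0 CPM) and -0.42 (19.95 and 27.0 CPM). Ifitm1, an interferon-induced membrane protein gene of early progenitors, had ratios of 0.37 (302 and 234 CPM) and -0.32 (320 and 399 CPM). The basophil, mast cell and eosinophil list had medians of 0.54 in WT and -0.34 in Tet2 KO, where basophil-like cells were 8.43% and 3.43% of the WT GMP and Lin-/CD11b+ sorts and 5.52% and 3.33% of the Tet2 KO sorts. The part of these shares in the medians was not tested.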

How the results depend on the processing

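The 35 genes higher in the GMP sort became 87 with the mean over cells, 23 with totals without immunoglobulin genes, 10 with an offset of 10 CPM, 54 in the Tet2 KO libraries and 22 without plasma cell-like cells, a setting chosen after seeing the data. The 637 lower genes became 136 with the offset of 10 CPM, 284 with at least 200 UMIs and 985 in the Tet2 KO libraries. TMM factors gave 26 and 698. Thinning to 5000 UMIs per cell took the genes with shares at least 10 points higher from 3728 to 401 and lower from 60 to 98. At Leiden resolution 1.2 the higher genes within mono-biased GMP-like cells went from 41 to 68 and within neutro-biased GMP-like cells from 122 to 72. The median of the basophil, mast cell and eosinophil list reversed to -0.34 in the Tet2 KO libraries. The cause was not tested, except that an offset of 10 CPM shrinks ratios of low genes and a minimum of 200 UMIs leaves fewer genes. Over the settings within the WT libraries, medians ranged from 0.96 to 1.28 for primary granule genes and from -3.68 to -1.88 for secondary and tertiary granule genes. No named gene past 2-fold changed sign in the settings run. Of the values of named genes under other settings, 278 moved and 610 did not. Among those under 2-fold, Xbp1 went from -0.56 to 0.26 without plasma cell-like cells. No paired analysis was possible because each genotype gave 1 library per sort, both from 1 mouse, which is a single pair and allows no test. With 1 library a side none could be left out. Counting error limits genes with few UMIs, such as Gzmb.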
